A study of Mus musculus with 6 samples.

Results

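The genes described here make cholesterol, sense it and move it within the cell, and they were measured in the inguinal fat pad, which is white adipose tissue under the skin. The 27 genes were listed by function: the enzymes from acetoacetyl-CoA to cholesterol, the control of the transcription factor SREBP2, and 3 proteins that carry cholesterol between membranes. Of these, 26 were analysed among 19937 genes tested, and Acat2, which makes acetoacetyl-CoA, was not analysed here. RNA came from 3 mice of genotype ATF7 KO and 3 wild-type (WT) littermates, all C57BL/6 males aged 5 weeks, bred from Atf7 heterozygotes and kept specific-pathogen-free. All 6 mice were sampled without any agent named in the labels. Each mouse gave 1 Affymetrix array. Neither the part of Atf7 that the allele removes nor the cells in which it acts was given in the sources used here, and the series title places the study in fat cell differentiation and thermogenic gene expression.

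Cells build cholesterol from acetyl units through mevalonate, isoprenoid diphosphates, squalene and lanosterol. When membranes of the endoplasmic reticulum run low in sterol, the escort protein SCAP carries SREBP2 to the Golgi, where it is cut to release a factor that switches on most of these enzymes; when sterol is ample, INSIG proteins hold SCAP back. Fat cells keep a large store of free cholesterol at the lipid droplet and make little of it themselves.

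All expression values below are log2 values, each difference is KO minus WT on that scale, and SE is the moderated standard error from limma. Probe set 10433032 of Atf7 checked the labels: it was 8.95, 9.20 and 9.07 in WT and 6.22, 6.53 and 6.49 in KO, a difference of -2.66, with no overlap. The second Atf7 probe set differed by -0.17. Adipoq, a fat cell hormone, lay between 12.24 and 12.68 on all arrays, on a scale that ran from 1.44 to 14.15, and the 9 measured adipocyte markers of 10 listed differed by -0.09 to 0.35. Among thermogenic markers, 9 of 10 listed were measured. Of the 9, 7 were higher in KO at an unadjusted p under 0.05 by limma, beside 4.99% of all genes. For 8, all KO mice were above all WT mice, beside 7.96% of all genes. Elovl3 went the other way, with all KO mice below all WT mice (difference -0.06), beside 5.97% of all genes. The list stood at -0.31, -0.53 and -0.78 in WT and 0.49, 0.30 and 0.83 in KO, led by the uncoupling protein Ucp1 (difference 2.91). None of the 9 passed adjustment by limma, and their part in the sterol gene values was not tested. KO replicate 3 stood apart, correlating at 0.969 to 0.981 with the other arrays over probe sets, while the others correlated at 0.984 to 0.990 among themselves. Its lymphocyte score, the mean centred value of 19 measured T cell and B cell markers, was -2.70, against -0.10 and 0.68 in KO replicates 1 and 2 and 0.57 to 0.84 in WT. All 19 markers were lower in KO. At an unadjusted p under 0.05 by limma, 4 of the 10 T cell markers and 0 of the 9 B cell markers were lower, beside 2.48% of all genes. The B cell list stood at 0.88, 0.66 and 0.93 in WT and 0.15, 0.83 and -3.45 in KO. Skeletal muscle markers differed between mice of both groups, with scores of -1.65, 2.58 and 0.72 in WT and 1.59, -1.49 and -1.74 in KO. In bulk tissue, fewer cells of a type and less RNA per cell cannot be told apart.

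The upstream sequences of 4 members are shown to set sequence beside expression. Hmgcs1 was taken as an early enzyme. Among the 28 member promoters held, only its promoter had an exact match to TCACNCCAC, a sterol response element pattern. Cyp51 and Insig1 were 2 of the genes that varied most among WT mice, and Srebf2 is the gene of the controlling factor. The sequences are the 250 bases before the start site in RefSeq, build GRCm38.p6, written 5′ to 3′ on the gene's strand. Capitals mark exact matches on either strand to TCACNCCAC and to CCAAT, the box bound by the SREBP partner NF-Y.
Hmgcs1 (chr13:119690101-119690350, plus strand): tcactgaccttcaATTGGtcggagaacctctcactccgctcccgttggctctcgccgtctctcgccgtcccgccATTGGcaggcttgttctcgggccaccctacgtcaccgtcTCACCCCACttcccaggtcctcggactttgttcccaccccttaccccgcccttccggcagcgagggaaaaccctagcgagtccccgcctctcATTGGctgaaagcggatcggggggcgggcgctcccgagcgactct
Cyp51 (chr5:4104698-4104947, minus strand): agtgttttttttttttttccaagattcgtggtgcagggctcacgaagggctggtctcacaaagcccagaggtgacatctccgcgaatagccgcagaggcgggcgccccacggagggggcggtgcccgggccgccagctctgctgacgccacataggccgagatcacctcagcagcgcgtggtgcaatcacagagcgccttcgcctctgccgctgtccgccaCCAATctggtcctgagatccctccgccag
Insig1 (chr5:28071162-28071411, plus strand): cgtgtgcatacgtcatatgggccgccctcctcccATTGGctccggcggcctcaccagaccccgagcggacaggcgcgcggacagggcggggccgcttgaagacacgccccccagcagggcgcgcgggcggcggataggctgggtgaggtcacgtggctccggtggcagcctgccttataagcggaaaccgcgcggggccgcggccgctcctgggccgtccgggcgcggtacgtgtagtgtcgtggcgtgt
Srebf2 (chr15:82147019-82147268, plus strand): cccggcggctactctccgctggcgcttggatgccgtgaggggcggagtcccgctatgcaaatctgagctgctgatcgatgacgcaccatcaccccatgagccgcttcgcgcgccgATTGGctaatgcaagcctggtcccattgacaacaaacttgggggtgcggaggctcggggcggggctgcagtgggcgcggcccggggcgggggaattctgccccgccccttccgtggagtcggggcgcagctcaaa
Promoters of 300 bases, from 250 before to 50 after the start site, were held for 22 of the 27 genes, 28 promoters in all. CCAAT on either strand was in 20 of the 28, beside 37.4% of all 32851 promoters and 37.4% of the 19176 promoters of genes on the array. The GC box GGGCGG was in 23 of 28, beside 35.7% of all promoters and 49.2% of those of array genes. TCACNCCAC was in 1 of 28, that of Hmgcs1, where it begins at base -137 from the start site with NF-Y boxes on both sides, beside 1.24% of all promoters. The full cyclic AMP response element TGACGTCA, the class of site bound by ATF and CREB factors, was in 0 of 28, beside 1.79% of all promoters. These matches describe letters in a short window and not binding. Sequences that departed from a pattern by 1 base were not counted. A promoter without a TCACNCCAC match may therefore still hold a sterol response element.

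Across the pathway, no member passed adjustment over all genes. Limma called 0 of 26 members at an adjusted p under 0.05, where it called 0% of all genes higher and 0% lower, and the smallest adjusted p among members was 0.622. Atf7 itself was not called in this fit, where its brighter probe set (-0.17) stood for it. At an unadjusted p under 0.05 there was 1 member higher, Npc1, beside 4.99% of all genes, and 0 lower, beside 2.48%. Differences were positive for 19 of 26 members, beside 53% of all genes, with a median of 0.13 against 0.01 over all genes and a range from -0.43 to 0.60. The groups did not overlap for 2 members, with KO on top for 1 (7.96% of all genes) and underneath for 1 (5.97% of all genes). Leaving out WT replicate 3 gave a median of 0.02 and leaving out KO replicate 3 one of 0.07, and adjusting for lymphocyte score gave 0.02. All 19 markers of that score were lower in KO, and KO replicate 3 was lowest at -2.70. With 6 arrays, the adjusted values here and below cannot fully separate the score from genotype.

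**Figure D1:**
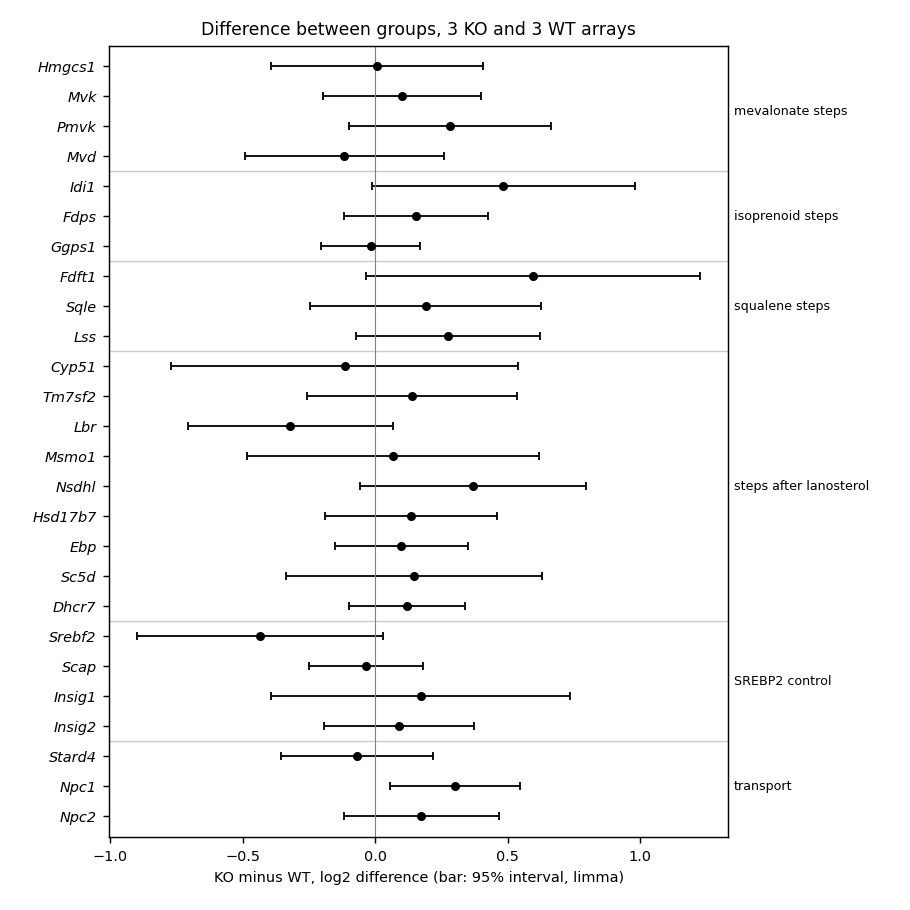
KO minus WT difference (log2) of 26 sterol genes in pathway order, 3 arrays per group. Points are limma estimates and bars 95% intervals; the interval of Npc1 lies above 0 (0.06 to 0.55), and all others include 0.

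In the mevalonate steps, Hmgcs1, the cytosolic synthase that joins acetyl-CoA to acetoacetyl-CoA, had nearly the same mean in both groups. It read 9.23, 9.18 and 8.93 in WT and 9.09, 8.82 and 9.44 in KO. The highest and the lowest array were both KO, replicates 3 and 2, and the difference was 0.01 (SE 0.17, 95% interval -0.39 to 0.40). Pmvk, phosphomevalonate kinase, read 7.61, 7.86 and 7.24 in WT and 7.81, 7.80 and 7.96 in KO. WT replicate 3 was low and WT replicate 2 lay inside the KO range, with a difference of 0.28 (SE 0.16) that was 0.11 when the former was left out. Mvk, mevalonate kinase, differed by 0.10 and Mvd, which decarboxylates mevalonate diphosphate, by -0.12, and groups overlapped in all 4 measured members of this step.

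The isoprenoid steps make the building blocks that sterols share with ubiquinone, dolichol and prenylated proteins. Idi1, which isomerizes isopentenyl diphosphate, read 7.87, 7.96 and 7.90 in WT and 8.44, 7.92 and 8.81 in KO. The WT mice lay within a narrow band, KO replicates 1 and 3 were above it and KO replicate 2 inside it. The difference of 0.48 (SE 0.21, 1.40-fold higher) had an unadjusted p of 0.0541 and an adjusted p of 0.622 by limma, and was 0.27 without KO replicate 3, 0.72 without KO replicate 2 and 0.15 adjusted for lymphocyte score. A second Idi1 probe set differed by 0.24. Fdps, farnesyl diphosphate synthase, differed by 0.15 (SE 0.12), with KO replicate 3 highest at 8.55. Ggps1, which extends the chain for protein prenylation and leaves the sterol route, was nearly constant, from 8.66 to 8.74 over all 6 arrays (difference -0.02, 95% interval -0.20 to 0.17).

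The squalene steps, where carbon is committed to sterols, held the member with the largest difference. Fdft1, squalene synthase, read 8.85, 9.80 and 8.97 in WT and 9.77, 9.54 and 10.10 in KO. The 3 KO mice were high and WT replicates 1 and 3 low, but WT replicate 2 lay within the KO range, so the groups overlapped. Its difference was 0.60 (SE 0.27, 1.51-fold higher, 95% interval -0.03 to 1.22), with an unadjusted p of 0.0603 and an adjusted p of 0.622 by limma. A second Fdft1 probe set differed by 0.51, and the difference was 0.42 when WT replicate 1 was left out and 0.89 when WT replicate 2 was. Adjusted for lymphocyte score it was 0.35. Lss, which cyclizes squalene epoxide to lanosterol, read 7.37, 7.74 and 7.35 in WT and 7.76, 7.57 and 7.94 in KO. The order of arrays was that of Fdft1 in that WT replicates 1 and 3 were lowest and KO replicate 3 highest, with a difference of 0.27 (SE 0.15). Sqle, squalene epoxidase, a flux-limiting enzyme, read 6.87, 7.35 and 6.59 in WT and 7.16, 7.09 and 7.12 in KO. The KO mice were within 0.07 of each other, the WT mice spanned 0.76 and surrounded them. The difference of 0.19 (SE 0.19) shrank to 0.016 when WT replicate 3 was left out and grew to 0.40 (limma, unadjusted p 0.0156) when the highest WT mouse was.

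**Figure D2:**
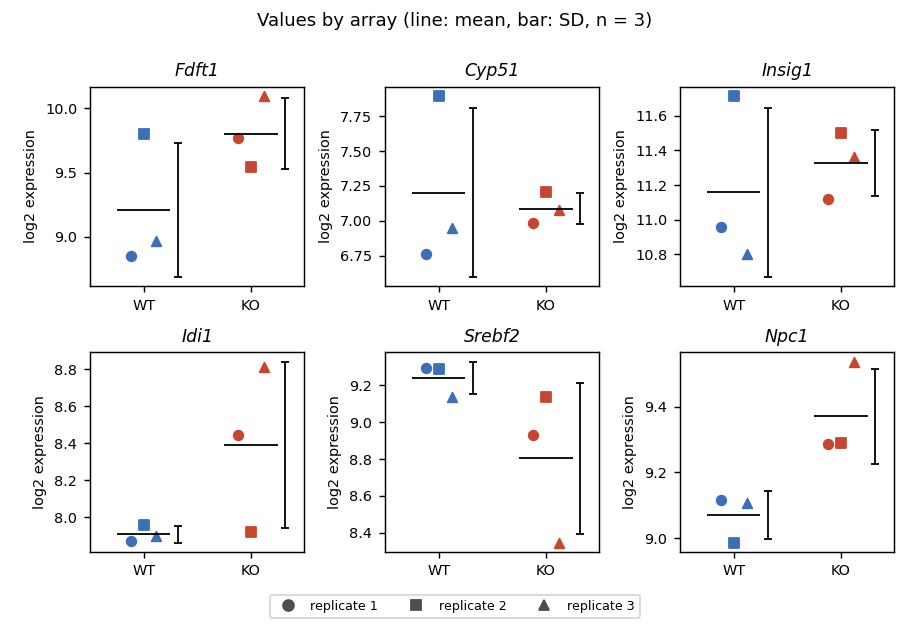
Log2 expression of 6 members on each array, WT and KO, with the mean (line) and SD (bar, n = 3). WT replicate 2 is the highest WT array for Fdft1, Cyp51 and Insig1, KO replicate 3 is the extreme array for Idi1 and Srebf2, and Npc1 separates the groups.

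After lanosterol, methyl groups are removed and double bonds moved until cholesterol is reached. Of the 9 members here, 7 were positive and 0 passed at an unadjusted p under 0.05 in either direction. Nsdhl, a dehydrogenase of the demethylation complex, read 8.96, 9.23 and 8.92 in WT and 9.49, 9.04 and 9.70 in KO. KO replicates 1 and 3 were above all WT mice and KO replicate 2 was among them, with a difference of 0.37 (SE 0.18) that was 0.22 without KO replicate 3, 0.55 without KO replicate 2 and 0.13 adjusted for lymphocyte score. Lbr, a sterol reductase that is also the lamin B receptor of the nuclear envelope, ran the other way and read 8.57, 8.43 and 8.49 in WT and 8.13, 8.52 and 7.88 in KO. KO replicate 3 was lowest, and KO replicate 2 lay inside the WT range. The part of lymphocyte RNA in the Lbr values was not tested. The difference of -0.32 (SE 0.16) was -0.17 without KO replicate 3 and -0.08 adjusted for lymphocyte score. Tm7sf2, the other reductase of that step, differed by 0.14, and by -0.04 without KO replicate 3.

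Cyp51, Msmo1 and Sc5d are described on each array because they spread widely among WT mice, a choice made after their values were seen. Cyp51, the lanosterol demethylase, read 6.77, 7.89 and 6.95 in WT and 6.99, 7.20 and 7.08 in KO. WT replicate 2 alone was high, and the difference moved from -0.11 to 0.23 without it. Msmo1, the methyl sterol oxidase, read 7.88, 8.56 and 7.63 in WT and 7.98, 8.28 and 8.01 in KO, with a difference of 0.07. Sc5d, the lathosterol desaturase, read 9.20, 9.72 and 8.91 in WT and 9.46, 9.25 and 9.56 in KO, with a difference of 0.15. In all 3 genes WT replicate 2 was the highest of the 6 arrays. Hsd17b7, Ebp and Dhcr7, which carry out a ketone reduction, a double-bond shift and the final reduction, differed by 0.14, 0.10 and 0.12, and the KO mice lay within 0.05 of each other for Dhcr7.

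**Figure D3:**
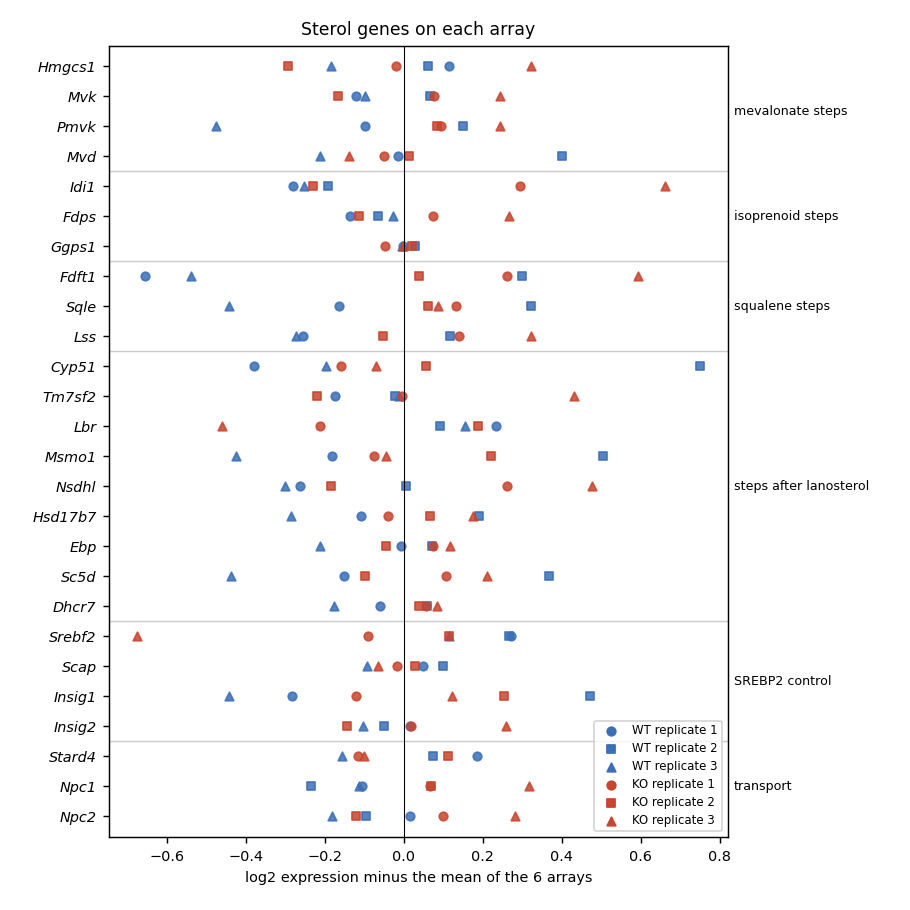
Each sterol gene on each array, as log2 expression minus the gene's mean over the 6 arrays; blue is WT, red is KO and shapes are replicates. WT replicate 2 (blue squares) lies right of the other WT arrays in 17 of 26 genes, and KO replicate 3 (red triangles) is the highest KO array in 16.

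Of the 4 regulators, 2 had a positive and 2 a negative difference, and 0 passed at an unadjusted p under 0.05. Srebf2 read 9.29, 9.29 and 9.14 in WT and 8.93, 9.14 and 8.35 in KO. KO replicate 3 was lowest, and the highest KO and the lowest WT array were both at 9.14, so the groups were separated by almost nothing. The difference of -0.43 (SE 0.20, 1.35-fold lower) had an unadjusted p of 0.0629 and an adjusted p of 0.622 by limma. It was -0.21 without KO replicate 3, -0.60 without KO replicate 2 and -0.11 adjusted for lymphocyte score. Scap read 8.80, 8.85 and 8.66 in WT and 8.73, 8.78 and 8.68 in KO. The KO range lay inside the WT range, with a difference of -0.04 (95% interval -0.25 to 0.18). Insig1, itself a target of SREBP2, read 10.96, 11.71 and 10.80 in WT and 11.12, 11.50 and 11.36 in KO. WT replicate 2 was above and WT replicates 1 and 3 below all KO mice, and the difference of 0.17 (SE 0.24) was 0.45 when WT replicate 2 was left out and -0.0084 when WT replicate 3 was. Insig2, the form that is not driven by SREBP2, read 8.75, 8.69 and 8.63 in WT and 8.76, 8.59 and 9.00 in KO. KO replicate 3 was highest and the groups overlapped, with a difference of 0.09.

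Cholesterol taken up in lipoproteins is freed in lysosomes, where NPC2 hands it to the membrane protein NPC1 for export. Npc1 read 9.12, 8.99 and 9.11 in WT and 9.29, 9.29 and 9.54 in KO. Every KO mouse was above every WT mouse. The difference of 0.30 (SE 0.10, 1.23-fold higher, 95% interval 0.06 to 0.55) had an unadjusted p of 0.0230 and did not pass adjustment by limma (adjusted p 0.622). It stayed between 0.22, without KO replicate 3, and 0.34 when single arrays were left out, where the unadjusted p ran from 0.0254 to 0.0730, and was 0.19 adjusted for lymphocyte score. An exact permutation test of 3 mice against 3 cannot go below 0.1. Npc2 differed by 0.17 (SE 0.12), with KO replicate 3 highest at 10.36 and KO replicate 2 inside the WT range. Stard4, a soluble sterol carrier that SREBP2 induces, differed by -0.07, with both groups between 6.26 and 6.60.

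The members varied among mice of one genotype, described here by which array was extreme. WT replicate 2 was the highest WT array in 17 members, 65.4%, beside 29.0% of all genes, and WT replicate 3 the lowest in 18, 69.2%, beside 34.7%. In KO, replicate 3 was the highest in 16 members, 61.5%, beside 44.4% of all genes, and replicate 2 the lowest in 15, 57.7%, beside 41.9%. The SD over the WT mice exceeded 0.3, a threshold set after the values were seen, in 8 members: Pmvk, Mvd, Fdft1, Sqle, Cyp51, Msmo1, Sc5d and Insig1. WT replicate 2 was the highest WT array in all 8 and the highest of all 6 arrays in 6 of them. The SD over the KO mice exceeded 0.3 in 6 others: Hmgcs1, Idi1, Tm7sf2, Lbr, Nsdhl and Srebf2. There KO replicate 3 was the extreme array, highest in 4 and lowest in Lbr and Srebf2. Over all genes, 7.39% had a WT SD above 0.3 and 15.5% a KO SD above 0.3. No member exceeded 0.3 in both groups, and 12 members exceeded it in neither. Fdft1 was near it in KO as well, with an SD of 0.52 in WT and 0.28 in KO. Which array was extreme among all genes above 0.3 was not counted.

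**Figure D4:**
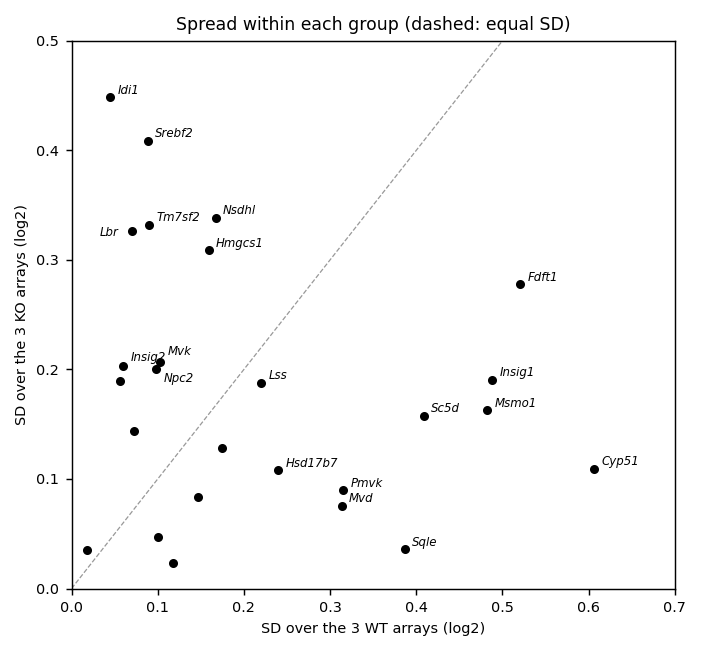
SD of log2 expression over 3 WT mice (horizontal) and over 3 KO mice (vertical) for 26 sterol genes, with equal SD on the dashed line. The 8 genes at the right, from Cyp51 to Mvd, spread among WT mice, and the 6 at the upper left, from Idi1 to Hmgcs1, spread among KO mice.

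By step, the squalene enzymes had the widest range, with mean centred levels of -0.36, 0.25 and -0.42 in WT and 0.18, 0.02 and 0.33 in KO. WT replicate 2 lay between KO replicates 1 and 3. The 9 later enzymes stood at -0.12, 0.22 and -0.21 in WT and at 0.00, 0.00 and 0.10 in KO, with the KO mice inside the WT range. The isoprenoid enzymes stood at -0.14, -0.08 and -0.09 in WT and 0.11, -0.11 and 0.31 in KO, a spread among KO mice that was widest in Idi1 (SD 0.45), narrower in Fdps (SD 0.19) and small in Ggps1 (SD 0.035). The muscle score was also highest in WT replicate 2, with -1.65, 2.58 and 0.72 in WT and 1.59, -1.49 and -1.74 in KO. The adipocyte marker list stood at -0.07, 0.12 and -0.19 in WT and 0.02, -0.06 and 0.18 in KO. All 26 members together stood at -0.10, 0.14 and -0.21 in WT and 0.03, -0.01 and 0.14 in KO. In both lists, replicate 2 was highest and replicate 3 lowest in WT, and replicate 3 highest and replicate 2 lowest in KO. The part of muscle or fat cell RNA in the sterol gene values was not tested.

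**Figure D5:**
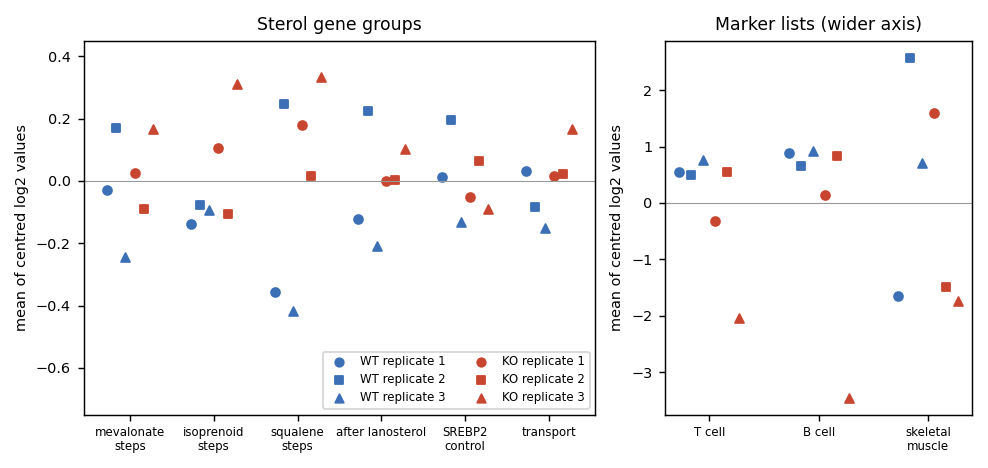
Mean of the centred log2 values of each sterol gene group (left) and of T cell, B cell and skeletal muscle markers (right, wider axis) on each array. WT replicate 2 is at 0.25 for the squalene steps beside -0.36 and -0.42 in the other WT mice, and KO replicate 3 is at -3.45 for B cell markers.

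The members under an unadjusted p of 0.05 differed with the array left out. Without WT replicate 2 there were 6 higher (Fdft1, Insig1, Lss, Pmvk, Sc5d and Sqle), and Npc1 was not among them, in a fit where 4.06% of all genes were higher and 2.03% lower. Without KO replicate 2 there were 6 higher (Fdft1, Idi1, Lss, Npc1, Npc2 and Nsdhl) and 2 lower, Lbr and Srebf2, in a fit where 10.4% of all genes were higher and 8.47% lower. Without KO replicate 3 there were 0, beside 3.10% of all genes higher and 1.90% lower, and with adjustment for lymphocyte score there were also 0, beside 2.32% and 1.63%. None of these fits called a member after adjustment over all genes, and the smallest adjusted p of a member in any of them was 0.174.

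Around the members, 46 of 53 listed genes of connected steps were measured, of which 2 were higher and 2 lower at an unadjusted p under 0.05 and 0 passed adjustment. Over all genes those shares were 4.99% and 2.48%, so 2 in 46 is near the background in both directions. Among the 11 measured genes of side branches and prenyl transfer, 7 were positive and 0 passed either way at that p, with a median of 0.07. Those with the smallest p were Fnta (0.20), a prenyltransferase subunit, Rabggta (-0.20), which acts on Rab proteins, Erg28 (-0.14) and the mitochondrial thiolase Acat1 (0.20). In SREBP processing and sterol sensing, 5 of 9 were positive and 0 passed, with differences of 0.14 for Erlin2, -0.31 for the ubiquitin ligase Rnf145, -0.10 for Rnf139 and -0.09 for the protease gene Mbtps1. Without KO replicate 3 Rnf145 was at -0.063 and Erlin2 at 0.089, and adjusted for lymphocyte score Rnf145 was at 0.038.

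Of 17 measured genes of uptake and trafficking, 11 were positive, with 1 higher and 1 lower at an unadjusted p under 0.05. Vldlr, a lipoprotein receptor, read 8.63, 8.79 and 8.38 in WT and 9.08, 8.84 and 9.44 in KO. All KO mice were above all WT mice, as in 7.96% of all genes. The difference was 0.52 (SE 0.18, 1.44-fold higher, limma adjusted p 0.622). It was 0.36 without KO replicate 3 and 0.28 (unadjusted p 0.0885) adjusted for lymphocyte score. Lrp8, a related receptor, read 7.41, 7.27 and 7.25 in WT and 7.03, 7.13 and 6.48 in KO. KO replicate 3 was lowest, and the difference was -0.43, or -0.23 without that array and -0.15 (unadjusted p 0.199) adjusted for lymphocyte score. Gramd1a, which moves plasma membrane cholesterol to the endoplasmic reticulum, differed by -0.40 and by -0.16 without KO replicate 3, and the endocytic receptor Lrp1 by 0.25.

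Of 9 measured genes of efflux, esters and oxysterols, 3 were positive, with a median of -0.06. Cyp27a1, the mitochondrial sterol hydroxylase that makes an oxysterol, had the smallest p of the members and connected genes. It read 9.08, 8.89 and 9.01 in WT and 9.52, 9.49 and 9.58 in KO. The KO mice lay within a narrow band above all WT mice, and 7.96% of all genes had every KO mouse above every WT mouse. Its difference was 0.54 (SE 0.09, 1.45-fold higher), with an unadjusted p of 0.000517 and an adjusted p of 0.602 by limma, and it stayed between 0.49 and 0.58 when single arrays were left out. It was 0.50 (unadjusted p 0.00226) adjusted for lymphocyte score. Cyp7b1, which breaks down oxysterols, read 5.06, 5.07 and 5.36 in WT and 4.74, 4.95 and 4.82 in KO. Every KO mouse was below every WT mouse, as in 5.97% of all genes. Its expression was low, at percentile 17.6 of all genes. The difference was -0.33 (SE 0.12, limma adjusted p 0.622), and -0.29 (unadjusted p 0.0831) adjusted for lymphocyte score. Ch25h, which makes another oxysterol, and the efflux transporter Abcg1 differed by -0.63 and -0.41, and by -0.33 and -0.21 without KO replicate 3. Without KO replicate 2, 5 of the 46 genes were higher and 6 lower at an unadjusted p under 0.05, beside 10.4% and 8.47% of all genes. Without WT replicate 3 these were 1 and 0, beside 2.99% and 0.963%.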

How the data were processed

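The values are the series' deposited table of log2 expression, 1 column per array, for 34760 probe sets on 6 arrays (3 WT, 3 KO). RMA, affy and limma were used by the authors, per the submitters' processing notes; the sources used here give no versions, options or genome build of the annotation. RMA equalizes the arrays' distributions (medians 6.41 to 6.49) and hides a change common to most genes. Precision is limited by the 6 arrays.

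Gene names came from the platform annotation. Probe sets with 1 symbol (21640) were used, those with several (1321) or none (11799) were not, and the brightest probe set on average stood for each gene, leaving 19937 genes. KO and WT, taken from sample titles, were compared with limma 3.58.1 in R 4.3.3 (lmFit, eBayes, two-sided, Benjamini-Hochberg over all genes, threshold 0.05, no filter). The fit was tested on simulated data. Replicates are mice per the series description. A list's level is the mean of its genes after centring each on its 6-array mean. Members and lists (sterol genes, connected steps, adipocyte, thermogenic, T cell, B cell and muscle markers) were chosen with earlier results of these data known. Array values are given for members at an unadjusted p under 0.05, the 8 largest differences, Srebf2, Scap, Insig1, Insig2, Hmgcs1, Sqle, Lss and Fdft1, and up to 4 genes of smallest p are named per list of connected steps. Promoters came from RefSeq (GRCm38.p6). Alternatives covered arrays left out, pairing, normalization, dim genes, probe set choice, variance prior and a lymphocyte covariate.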

Additional observations from a re-analysis of the deposited data

How the results depend on the processing

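The adjusted count of members was 0 under every alternative run. At an unadjusted p under 0.05, 0 to 6 members were higher and 0 to 2 lower without each array in turn. Over all genes these fits had 2.81% to 10.4% higher and 0.963% to 8.47% lower. With the lymphocyte score as a covariate 0 were higher, beside 2.32% of all genes, and without WT replicate 2 and KO replicate 3 together, chosen after seeing the data, 6 were higher, beside 3.06%. Other pathway genes numbered 1 to 5 higher and 0 to 6 lower without each array in turn, beside the same shares of all genes. In 2 fits added after seeing the data, the lymphocyte covariate left 1 higher and 1 lower, beside 2.32% and 1.63% of all genes. That covariate turned Rnf145 to 0.038. The replicate block left 1 higher and 3 lower, beside 4.6% and 2.34%. The median difference of the members ran from 0.02 to 0.17 with single arrays left out and from 0.02 to 0.15 under the other changes of processing.

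No pairing of the mice by replicate number was seen in the values. Deviations of same-numbered mice from their group means correlated at -0.14, -0.08 and -0.04 over genes. Mice of one group also differed in lymphocyte and muscle scores, so these correlations cannot show whether the mice were paired by litter or batch. With the replicate number as a block, 1 member was higher, Npc1, beside 4.6% of all genes. In that fit 1 was lower, Srebf2 (unadjusted p 0.0334, limma adjusted p 0.644), beside 2.34%.

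Of 181 member differences under the 7 other changes of processing, 6 turned in sign. These were Hmgcs1 (-0.0074) after a second quantile normalization, Ggps1 (0.0099) after shifting arrays to one median, and Hmgcs1 (-0.24), Mvk (-0.053), Tm7sf2 (-0.12) and Insig2 (-0.069) with the lymphocyte covariate. Without WT replicate 2 and KO replicate 3 together, Hmgcs1 was at -0.12, Mvd 0.094, Cyp51 0.24, Tm7sf2 -0.02, Scap 0.028 and Insig2 -0.019. Without each array in turn, 11 members changed sign: Hmgcs1 (-0.15 to 0.15), Mvd (-0.25 to 0.05), Ggps1 (-0.033 to 0.0021), Cyp51 (-0.33 to 0.23), Tm7sf2 (-0.044 to 0.28), Msmo1 (-0.13 to 0.34, and 0.38 without both of those arrays), Sc5d (-0.036 to 0.37), Scap (-0.091 to 0.0047), Insig1 (-0.0084 to 0.45), Insig2 (-0.02 to 0.18) and Stard4 (-0.16 to 0.0064). The other 15 kept their sign, but several sizes depended on 1 array: without KO replicate 3 Mvk was at 0.0059, Fdps at 0.057 and Npc2 at 0.077, and without WT replicate 3 Hsd17b7 was at 0.027, Ebp at 0.015 and Dhcr7 at 0.061. The cause was not tested. With only genes above the median level, 25 members remained, since Stard4 is dimmer. Background correction and slide could not be varied from these values.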
